A study of Mus musculus with 6 samples.

Results

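The genes described here are Ifnb1, which encodes interferon beta, and Ifnar1 and Ifnar2, which encode the chains of the type I interferon receptor. They were chosen by name, and all 3 members were among the 18429 genes of the count matrix. Transcripts of single sorted macrophages, grown from mouse bone marrow and either wild-type (WT) or Rad21-/- (lacking a subunit of the cohesin ring), were counted by MARS-seq, in which each captured molecule carries a unique molecular identifier (UMI). Cells of both genotypes carried creERT2 on both Rosa26 alleles and received 4-hydroxy-tamoxifen in culture, and Rad21-/- cells came from Rad21 lox/lox mice, so that Rad21 was deleted in a dish of differentiating cells and not in 1 clone. Macrophages were left untreated (UT) or stimulated with LPS at 10 ng/ml for 2 or 8 h. Each of the 6 groups was 1 sample, with 239 WT and 270 Rad21-/- cells at UT, 257 and 224 at 8 h and equal numbers of both at 2 h, 1362 cells in all, so that no difference has a replicate check, no test was run, and every interval is a 95% interval that covers counting error only, exact for shares, counts and ratios and by Newcombe's method for differences of shares.

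Interferon beta is made within a short time after a macrophage senses LPS. TLR4 with its co-receptors CD14 and MD-2 signals through the adaptor TRIF to the kinase TBK1, which activates IRF3, and IRF3 joins NF-kappaB and ATF2/JUN on the compact Ifnb1 promoter. The secreted protein binds the receptor pair IFNAR1 and IFNAR2 on the same and on neighbouring cells, where the kinases TYK2 and JAK1 activate transcription factors, among them STAT2, which acts with IRF9 to switch on interferon-stimulated genes. Macrophages also make a low level of interferon without a stimulus, and this tonic signal keeps part of the same target genes on.

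Single wells differed in depth, which sets how many transcripts can be seen. The 1362 cells held a median of 5970 UMIs, with medians of 5577 to 7055.5 in the 6 samples. In 17 wells more than 25000 UMIs were counted, and these wells held between 1.71% and 45.5% of a sample's UMIs, most in WT cells at 2 h. The shares, levels and gene counts of the comparisons were therefore also computed without these wells. A library pool held cells of 1 time point, so that time and pool cannot be told apart, whereas 23 of the 24 pools held both genotypes. Rad21 itself was detected in 25.9%, 26.9% and 18.7% of WT cells and in 2.96%, 6.45% and 5.80% of Rad21-/- cells at UT, 2 h and 8 h. The macrophage markers summed to between 5146 and 8738 CPM (UMIs of a gene scaled to the depth of the cell, averaged over cells) in the 6 groups. Of the 5 markers of plasmacytoid dendritic cells, a strong source of type I interferon, 3 had a row in the matrix, and their sum lay between 101 and 140 CPM.

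Ifnb1 is a small gene without introns at chr4:88522025-88522794 in GRCm38.p6. Its promoter is shown because it holds the sites of the factors whose genes are described further on. The run covers 100 bases of the minus strand, chr4:88522865-88522964, which end 71 bases before the RefSeq start. That start lies 77 bases after the last base of the nearest TATA box, farther than is usual, so that distances given from it may not be distances from the true cap site. Capitals mark 3 IRF half-sites (AANNGAAA), 2 matches of the NF-kappaB motif (GGGNNNNNCC, the second on the opposite strand) and a TATA box (TATAAA), with no overlap among them.

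Ifnb1 promoter: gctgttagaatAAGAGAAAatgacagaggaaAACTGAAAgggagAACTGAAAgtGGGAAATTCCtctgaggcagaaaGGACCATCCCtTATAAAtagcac

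Both strands of the 250 bases before the start of 32841 RefSeq transcripts were searched for the same letters, and 21.3% of windows held an IRF half-site, 45.8% the NF-kappaB motif and 12.4% a TATA box. The window of Ifnb1 held all of them, with a second TATA box 210 bases before the start. The windows of Ifnar1 and Ifnar2 held none of these letters. That of Ifnar1, chr16:91484965-91485214, belongs to a transcript that starts inside the gene. Part of it thus lies after the gene's start at 91485032, and the bases before that start were searched only in part. These matches are a description of the sequence, and binding was not measured in these data.

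Ifnb1 transcripts were found almost entirely in WT cells at 2 h of LPS. No cell of 239 untreated WT cells held an Ifnb1 UMI, so that up to 1.26% of such cells could hold one. At 2 h, 39 WT cells were positive, a share of 20.97% (15.4 to 27.5), with 75 UMIs in total (59.0 to 94.0). At 8 h the count was 0 of 257 WT cells, which allows up to 1.17%. The share at 2 h was taken at 20.97%, without its interval, and set against these limits, each that of 3 counts over the group. It was then at least 16.7-fold higher than in untreated cells and at least 17.96-fold higher than at 8 h. The exact upper 95% limits at UT and 8 h were higher, at 1.53% and 1.43%, so that the folds are not 95% bounds. Of the 3 members, only Ifnb1 was past 2-fold in WT cells at 2 h against UT. There, 5.16% of the 14624 genes tested were at least 2-fold higher and 6.15% lower. With 0 UMIs at UT, Ifnb1 met the minimum of 20 UMIs for testing only through its counts at 2 h. Its call was thus fixed by that minimum and is no result beside these shares.

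In Rad21-/- cells, Ifnb1 UMIs were rare at every time point. The counts were 0 of 270 untreated cells, which allows up to 1.11%, and 0 of 224 cells at 8 h, which allows up to 1.34%. At 2 h, 3 of as many Rad21-/- as WT cells held 1 UMI each, a share of 1.61% (0.334 to 4.64). The intervals of the genotypes at 2 h did not overlap, and the share in WT cells was 13.0 times that in Rad21-/- cells (4.13 to 65.8). In UMIs per cell the ratio was 25 (8.23 to 123.95). This interval, like that of the 75 UMIs in WT cells, treats each UMI as independent. Ifnb1 UMIs were spread over fewer cells than depth would give, as described below, so that both intervals are likely too narrow. Among genes tested at 2 h, 7.5% were at least 2-fold lower in Rad21-/- than in WT cells, and Ifnb1 was the 1 member among them. Ifnb1 met the minimum of 20 UMIs for testing only through WT cells, so that this call is no result beside that share.

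The positive Rad21-/- cells had 72517, 6267 and 5149 UMIs in total, so that 1 of them was among the deepest wells. This well also held 1 Rad21 UMI. The 2 others lay in pools whose WT cells held 29 and 25 Ifnb1 UMIs. Whether UMIs passed between wells of a pool was not tested. Without the wells above 25000 UMIs, the shares were 18.8% in WT cells (34 of 181) and 1.09% in Rad21-/- cells, a ratio of 17.3 (4.43 to 148.5). When every cell was thinned to 3800 UMIs, leaving out 21 WT and 32 Rad21-/- cells below that depth, the expected shares were 13.3% and 0.907%.

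**Figure D1:**
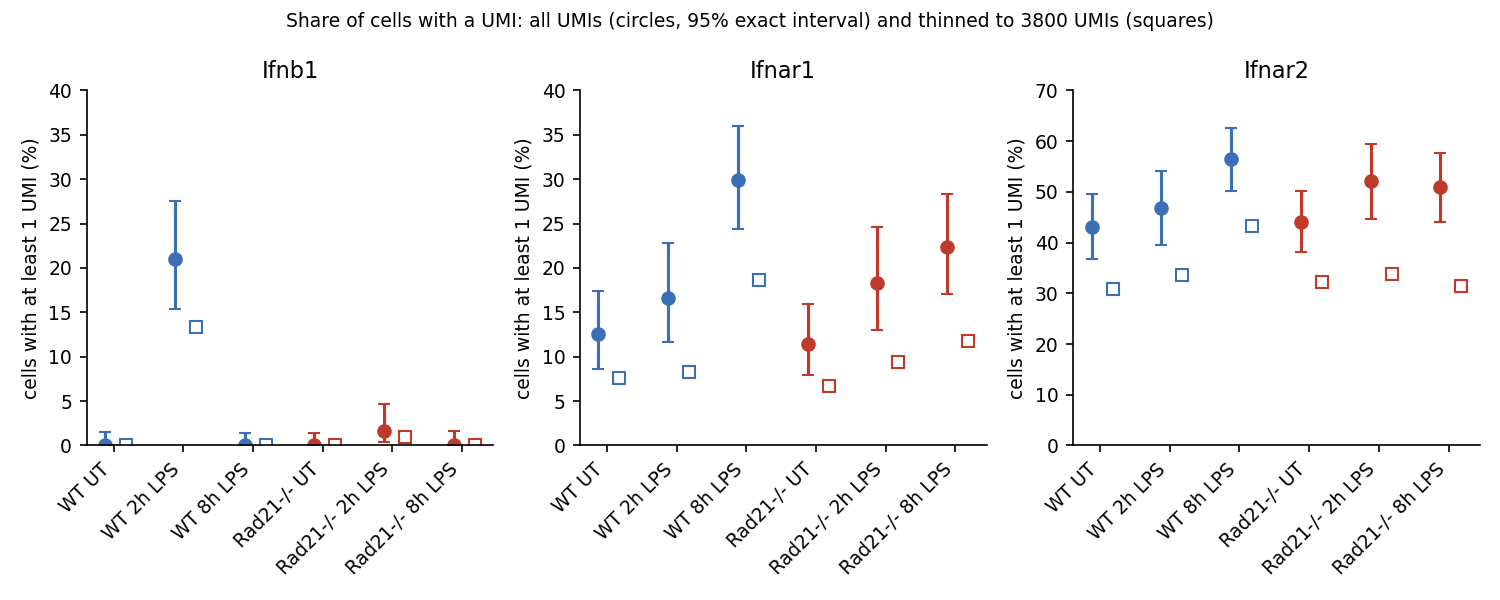
Share of cells with at least 1 UMI (y axis, %) of Ifnb1, Ifnar1 and Ifnar2 in the 6 groups, WT in blue and Rad21-/- in red, 1 sample per group; circles are all UMIs with the 95% exact interval, open squares the expected share after thinning to 3800 UMIs. Ifnb1 stands above 0 in WT cells at 2 h, at 20.97%, whereas Ifnar1 and Ifnar2 are seen in every group and have their highest shares in WT cells at 8 h.

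The genotype difference in Ifnb1 was also seen within library pools. In the 4 pools with at least 10 cells of each genotype at 2 h, 12 of 46, 14 of 43, 5 of 41 and 6 of 47 WT cells were positive. In the same pools, 1 of 46, 1 of 45, 0 of 45 and 0 of 41 Rad21-/- cells were positive. The WT share ranged from 12.2% to 32.6% over pools and the Rad21-/- share from 0 to 2.22%, without overlap, and the share was lower in Rad21-/- cells in 4 of 4 pools, with differences of -30.3 to -12.2 percentage points.

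**Figure D2:**
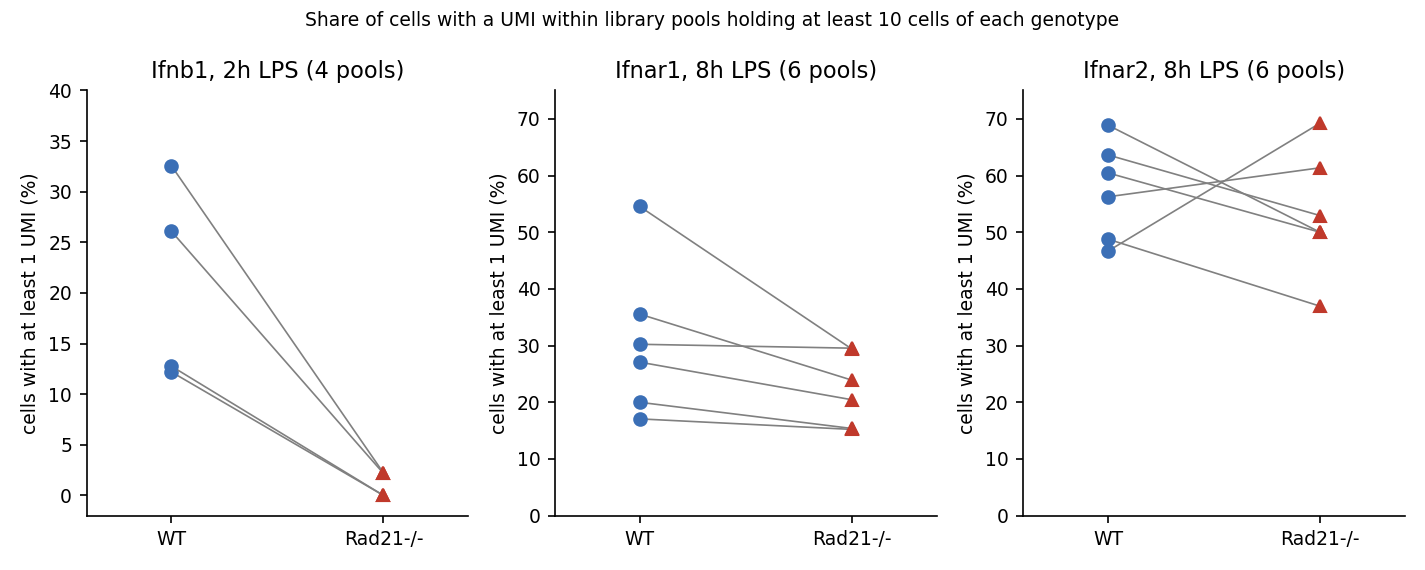
Share of cells with at least 1 UMI (y axis, %) in WT (blue circles) and Rad21-/- cells (red triangles) of the same library pool, joined by a line, for Ifnb1 at 2 h and for Ifnar1 and Ifnar2 at 8 h of LPS. The line goes down for Ifnb1 in 4 of 4 pools, for Ifnar1 in 6 of 6 and for Ifnar2 in 4 of 6.

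In most positive WT cells a single Ifnb1 UMI was counted, which is not the number of transcripts in the cell. Of the 39 positive cells, 25 held 1 UMI, 5 held 2 and 9 held 3 or more. The mean was 1.92 UMIs per positive cell, or 1.62 without the wells above 25000 UMIs. Only 14 cells, or 7.53%, were positive when at least 2 UMIs were asked for. On the scale of ln(CPM + 1), where 1 UMI in a shallow cell weighs more than in a deep one, positive cells had a mean of 5.03 ± 1.08 (SD over 39 cells of 1 sample).

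A few cells held a large part of the Ifnb1 UMIs. The highest count, 13 UMIs or 17.3% of all, came from the deepest well, which held 496955 UMIs. Among wells of up to 25000 UMIs the highest count was 5, in a cell of 7994 UMIs. A cell with 3 Ifnb1 UMIs had only 3230 UMIs in total. Positive cells had a median depth of 6743 UMIs and negative cells one of 5892, and the positive cells numbered 12, 9 and 18 of 62 in 3 depth classes of equal size, from shallow to deep.

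**Figure D3:**
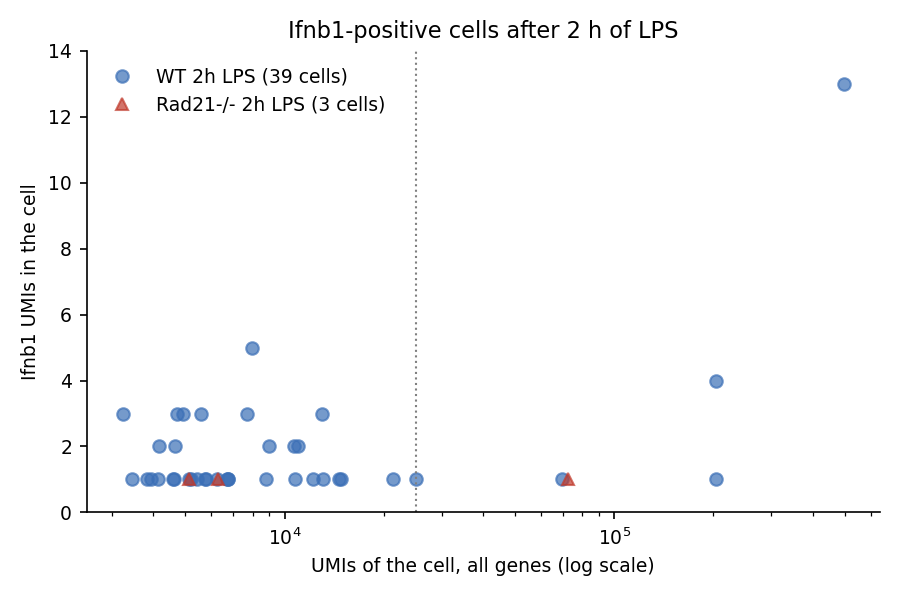
Ifnb1 UMIs (y axis) against all UMIs of the cell (x axis, log scale) in each Ifnb1-positive cell at 2 h of LPS, 39 WT cells (blue circles) and 3 Rad21-/- cells (red triangles); the dotted line marks 25000 UMIs. Cells with 3 to 5 Ifnb1 UMIs are found among wells of ordinary depth, and the cell with 13 is the deepest well.

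Ifnb1 was spread over fewer WT cells than its number of UMIs and the depth of the cells would give. If the 55 UMIs of wells up to 25000 UMIs had fallen on cells in proportion to depth, 46.5 cells would have been positive, while 34 were, or 73.2% of that number. Of 8668 genes with enough UMIs at this time, 0.842% had a lower percentage, and the median over them was 97.01%. The variance of UMIs over cells was 1.91 times the mean, where proportion to depth gives 1.06 times. Among other cytokines induced by LPS, Csf2 had 39.7% and Il12b 67.2% of the proportional number of cells, both below Ifnb1. Il10 had 77.2%, Il1b 81.2%, Ccl5 84.9%, Il27 86.9%, Il6 89.4% and Il1a 91.4%. Tnf, Ccl3, Ccl4 and Cxcl2 were detected in each of these cells, and Cxcl1 in 99.4% of them. Ifnar1 and Ifnar2 lay near the proportional number in the same wells, at 102% and 95.5%.

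Ifnb1-positive and negative WT cells at 2 h did not differ in receptor transcripts beyond counting error. In wells of up to 25000 UMIs, Ifnar1 was detected in 14.7% of positive (4.95 to 31.1) and 14.97% of negative cells (9.62 to 21.8), and Ifnar2 in 50% (32.4 to 67.6) and 44.2% (36.0 to 52.6). The summed level of the 26 interferon-stimulated targets had a median of 7508 CPM in positive and 6461 CPM in negative cells, and the middle 50% of cells, 6593 to 9683 and 4872 to 9099 CPM, overlapped.

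The receptor chains are encoded side by side on chromosome 16 with further cytokine receptor genes. In GRCm38.p6, Ifnar2 lies at chr16:91372783-91405589 and Ifnar1 at chr16:91485032-91510523, with Il10rb between them and Ifngr2 beyond Ifnar1. IFNAR2 is the chain that binds interferon with high affinity, and IFNAR1 completes the signalling receptor and carries TYK2.

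Ifnar1 was detected in every group, in a minority of cells, and had its highest share in WT cells at 8 h. In WT cells it was found in 12.6% (8.63 to 17.4) at UT, 16.7% (11.6 to 22.8) at 2 h and 30.0% (24.4 to 36.0) at 8 h. Rad21-/- cells had shares of 11.5% (7.94 to 15.9), 18.3% (13.0 to 24.6) and 22.3% (17.04 to 28.3). In the order of these 6 shares, from untreated Rad21-/- cells to WT cells at 8 h, the intervals of all neighbours overlapped. The intervals did not overlap between WT cells at 8 h and WT cells at UT, 17.4 points apart, or at 2 h, 13.3 points apart, or between Rad21-/- cells at 8 h and UT, 10.8 points apart.

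The level of Ifnar1 was higher at 8 h than at UT in both genotypes. The mean over cells of CPM, in which every cell weighs the same, was 22.7, 23.7 and 59.0 in WT cells and 19.3, 33.9 and 33.3 in Rad21-/- cells at UT, 2 h and 8 h. In WT cells at 8 h the log2 ratio of mean CPM, with the value of 1 UMI added to each sample, was 1.35 against UT and 1.28 against 2 h. With UMIs summed over cells, so that the deepest wells weigh most, the second ratio was 0.30 and no longer past 2-fold, while without the wells above 25000 UMIs the ratios were 1.34 and 1.33. In the first comparison 6.94% of genes tested were at least 2-fold higher and 18.4% lower, and the median gene stood at -0.26. In the second, 6.6% were higher and 14.5% lower, with a median of -0.22. Ifnb1, which could be tested there only through its counts at 2 h, was the member on the lower side. In Rad21-/- cells the log2 ratios of Ifnar1 were 0.80 at 2 h and 0.76 at 8 h against UT. Neither Ifnar1 nor Ifnar2 was past 2-fold there, and Ifnb1 had too few UMIs to be tested. Of genes tested, 4.48% were higher and 4.61% lower at 2 h against UT, 7.38% and 8.06% at 8 h against UT, and 6.81% and 6.41% at 8 h against 2 h.

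Between genotypes, Ifnar1 stood lower in Rad21-/- cells at 8 h, though within counting error. The share differed by -7.64 points (-15.3 to 0.268), and the log2 ratio was -0.81 where the median gene had 0.19. It was lower in Rad21-/- cells in 6 of 6 pools with at least 10 cells of each genotype, with differences of -25.1 to -0.687 points, and the ranges over pools, 17.1% to 54.5% in WT and 15.2% to 29.5% in Rad21-/- cells, overlapped. The untreated Rad21-/- cells differed from WT by -1.07 points (-6.88 to 4.59) and those at 2 h by 1.61 points (-6.14 to 9.36). Neither Ifnar1 nor Ifnar2 was past 2-fold between genotypes at any time. Of genes tested, 2.78% were higher and 5.62% lower in Rad21-/- cells at UT, 4.62% were higher at 2 h, and 9.8% were higher and 5.22% lower at 8 h.

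Most Ifnar1-positive cells held a single UMI. Single UMIs made up 83.3%, 80.6% and 77.9% of positive WT cells and 83.9%, 70.6% and 72.0% of positive Rad21-/- cells at UT, 2 h and 8 h. In WT cells at 2 h the mean of 3.48 UMIs per positive cell came from few wells, since wells above 25000 UMIs held 79 Ifnar1 UMIs, or 73.1% of them, 42 in the deepest well, and without them it was 1.07. In the other groups the mean was between 1.16 and 1.48. The level in positive cells, as ln(CPM + 1), was between 4.85 and 5.17 in the 6 groups, with an SD over cells of 0.46 to 0.68. The mean CPM of a positive WT cell was 181 at UT and 197 at 8 h, while the share went from 12.6% to 30.0%.

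Ifnar2 was detected in about as many cells as not and varied less between groups. It was found in 43.1% (36.7 to 49.6), 46.8% (39.4 to 54.2) and 56.4% (50.1 to 62.6) of WT cells at UT, 2 h and 8 h. Rad21-/- cells had shares of 44.1% (38.1 to 50.2), 52.2% (44.7 to 59.5) and 50.9% (44.1 to 57.6). The 1 pair of compared groups whose intervals did not overlap was WT cells at 8 h and UT, 13.3 points apart. The intervals of all neighbours in the order of the 6 shares overlapped. Rad21-/- cells at 8 h were deeper than WT cells, with medians of 7055.5 and 5819 UMIs, which raises a share. When cells were thinned to 3800 UMIs, the expected shares at UT, 2 h and 8 h were 30.9%, 33.6% and 43.4% in WT cells. In Rad21-/- cells they were 32.3%, 33.8% and 31.5%.

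The mean CPM of Ifnar2 was 95.7, 105.3 and 144 in WT cells and 104.8, 112 and 99.2 in Rad21-/- cells at UT, 2 h and 8 h. WT cells at 8 h stood highest, with a log2 ratio of 0.59 against UT. Rad21-/- cells at 8 h had a log2 ratio of -0.08 against UT and of -0.54 against WT cells at 8 h, with a share that differed by -5.53 points (-14.3 to 3.38), lower in 4 of 6 pools. Positive cells held between 1.43 and 2.87 UMIs, and the highest of these means, in WT cells at 2 h, was 1.5 without the wells above 25000 UMIs, which held 50.8% of that sample's Ifnar2 UMIs. The ln(CPM + 1) of positive cells was between 5.15 and 5.41.

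Since a macrophage needs both chains to respond, their joint detection was counted. Both were seen in 5.44%, 9.68% and 19.1% of WT cells and in 6.30%, 13.4% and 12.5% of Rad21-/- cells at UT, 2 h and 8 h. Neither was seen in 49.8%, 46.2% and 32.7% of WT cells and 50.7%, 43.01% and 39.3% of Rad21-/- cells, and at these depths a cell without a UMI is not shown to lack the transcript. In Rad21-/- cells at 2 h, Ifnar2 was detected in 73.5% of 34 Ifnar1-positive (55.64 to 87.1) and 47.4% of 152 Ifnar1-negative cells (39.2 to 55.62), with median depths of 7713.5 and 5805.5 UMIs. These intervals all but met, so that this group is not clearly set apart. In the 5 other groups the corresponding intervals overlapped.

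The genes beside the receptor chains were compared with them. Ifngr2, which encodes a chain of the interferon gamma receptor, had log2 ratios of 1.29 in WT and 1.55 in Rad21-/- cells at 8 h against UT, and was detected in 66.1% and 82.1% of cells at 8 h. Il10rb, a chain shared by the receptors for interleukin 10 and interferon lambda, had log2 ratios of -0.55 and -0.84. Ifngr1, the other chain of the interferon gamma receptor and encoded elsewhere, had log2 ratios of -1.61 and -1.26 at 8 h. Over the span of 191 kb from Ifnar2 to Ifngr2, Il10rb and its neighbour Ifnar1 thus had ratios of opposite sign at 8 h in both genotypes, whereas Ifnar1 and Ifngr2 had ratios of the same sign. Of the 7 listed genes for interferons of type II and III and their receptors, 3 had a row in the matrix. The 17 other type I interferon ligands, such as the interferon alpha genes, were not analysed here, as no row carried their symbols.

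**Figure D4:**
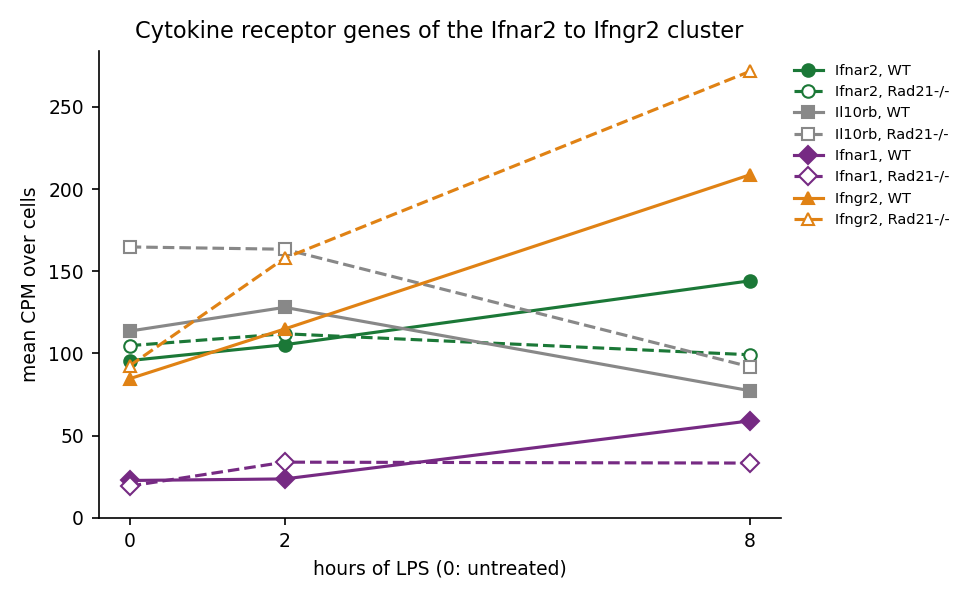
Mean over cells of CPM (y axis) of 4 cytokine receptor genes that lie in this order on chromosome 16, Ifnar2, Il10rb, Ifnar1 and Ifngr2, against hours of LPS (x axis, 0 is untreated), filled symbols and solid lines for WT and open symbols and dashed lines for Rad21-/- cells, 1 sample per point. Ifngr2 is highest at 8 h in both genotypes, Il10rb is lowest at 8 h, and Ifnar1 and Ifnar2 are higher at 8 h in WT than in Rad21-/- cells.

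Genes on the route from LPS to Ifnb1 were detected in both genotypes at 2 h, when Ifnb1 differed. Of 16 listed genes, 3 were at least 2-fold higher and 1 lower in WT cells at 2 h against UT, with a median log2 ratio of 0.08 beside -0.09 over all genes. Of all genes tested, 5.16% were higher and 6.15% lower. The co-receptor gene Cd14 had a log2 ratio of 1.51, Tank, a TBK1 adaptor, 1.42, and the NF-kappaB gene Nfkb1 1.05. Ly96, which encodes MD-2, was the lower one, at 7 UMIs in WT cells at 2 h, and without the wells above 25000 UMIs it was among those of the 16 genes with too few UMIs to be tested, 14 being left. In Rad21-/- cells 6 of 16 were higher at 2 h and none was lower, beside 4.48% higher and 4.61% lower over all genes. Among the 6 were Cd14 at 1.98, Jun at 1.66 and Rela at 1.31.

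Between genotypes at 2 h, 2 of the 15 route genes tested were at least 2-fold lower in Rad21-/- cells and 1 was higher, with a median of 0.04. Over all genes 7.5% were lower and 4.62% higher, with a median of 0.01, so that these counts were not far from those shares. Cd14 had a mean of 1825 CPM in WT and 538 CPM in Rad21-/- cells. Irf7, an interferon-induced factor that can act at interferon promoters, had 289 and 78.8 CPM, and was lower in untreated Rad21-/- cells too, at 111 against 488 CPM. Ticam2, which encodes the adaptor that bridges TLR4 to TRIF, was the higher gene, at 15.1 against 6.12 CPM. Tlr4 itself had 61.7 CPM in WT and 46.3 CPM in Rad21-/- cells, Ticam1, the TRIF gene, 19.3 and 14.04 CPM, Tbk1 46.4 and 38.1 CPM, and Irf3 11.1 and 21.2 CPM. At UT, 2 of the 16 genes were lower in Rad21-/- cells, and at 8 h 3 were higher and 3 lower. Over all genes 5.62% were lower at UT, and 9.8% were higher and 5.22% lower at 8 h.

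The kinases and transcription factors downstream of the receptor were partly lower in Rad21-/- cells. Of 4 genes described, 1 was at least 2-fold lower at UT, 2 at 2 h and 1 at 8 h, and none was higher. Of all genes tested, 5.62%, 7.5% and 5.22% were lower and 2.78%, 4.62% and 9.8% higher at these times. Counts out of 4 genes are too small to be set apart from these shares. Stat2 had 95.7, 30.3 and 192 CPM in WT and 32.7, 16.1 and 77.1 CPM in Rad21-/- cells at UT, 2 h and 8 h, with the lowest level at 2 h in both genotypes. Jak1 stood at 79.6, 82.04 and 129.7 CPM against 80.4, 97.7 and 109.96 CPM. Irf9 at 2 h had 62.8 CPM in WT and 25.3 CPM in Rad21-/- cells. Tyk2, whose kinase is bound to IFNAR1, had 28.5 and 13.1 CPM at the same time.

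Some of the feedback inhibitors of the receptor were higher after LPS. Of 7 genes, 1 was at least 2-fold higher at 2 h and 4 were at 8 h against UT in WT cells, and in Rad21-/- cells 1 of the 6 tested was at 2 h and 4 of 7 at 8 h, with none lower. Among all genes tested, 5.16% and 6.94% were higher in WT cells, and 4.48% and 7.38% in Rad21-/- cells. Socs3, an inhibitor of JAK signalling, was found in 1.26%, 72.0% and 76.3% of WT and 0.370%, 75.8% and 58.04% of Rad21-/- cells. Usp18, which binds IFNAR2 and dampens its signal, had 49.6, 65.7 and 348 CPM in WT and 27.9, 41.7 and 155.8 CPM in Rad21-/- cells. Between genotypes none of the 7 genes tested was past 2-fold at 2 h, and at 8 h 3 were lower in Rad21-/- cells, namely Socs1, Socs3 and Usp18. The share of all genes that was lower was 7.5% at 2 h and 5.22% at 8 h.

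The interferon-stimulated targets were lower in Rad21-/- cells at every time, before Ifnb1 was detected in either genotype as well as after. Whether their levels depended on the receptor was not tested. At UT, 19 of the 24 targets tested were at least 2-fold lower in Rad21-/- cells and none was higher, with a median log2 ratio of -1.87 beside -0.05 over all genes. At 2 h the count was 21 of 26, or 19 of 24 without the wells above 25000 UMIs, with a median of -1.31 beside 0.01 over all genes, and at 8 h 15 of 26, with a median of -1.09 beside 0.19. Of all genes tested, 5.62%, 7.5% and 5.22% were lower at UT, 2 h and 8 h. Isg15, a ubiquitin-like modifier, had 470.2, 927 and 4409.8 CPM in WT and 120.6, 381 and 2417 CPM in Rad21-/- cells. Ifit1, which binds foreign RNA, had 59.4, 134.5 and 511 CPM against 10.1, 30.7 and 121.5 CPM. Rsad2, the antiviral enzyme viperin, had 86.5, 837 and 2756 CPM against 22.1, 212 and 430.1 CPM.

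The targets were also higher with time in both genotypes, mostly at 8 h, when Ifnb1 was no longer detected. In WT cells 7 of 26 were at least 2-fold higher at 2 h and 20 of 26 at 8 h against UT, with median log2 ratios of 0.25 and 2.24. In Rad21-/- cells 7 of 23 were at 2 h and 23 of 26 at 8 h, with medians of 0.32 and 2.84. The shares of all genes that were higher at 2 h and 8 h were 5.16% and 6.94% in WT and 4.48% and 7.38% in Rad21-/- cells. No target was 2-fold lower in these 4 comparisons. Mx1, a GTPase known to need type I or III interferon, was found in 7.53%, 8.06% and 61.5% of WT cells and in 1.11%, 2.15% and 27.7% of Rad21-/- cells. Cxcl10, a chemokine that NF-kappaB also switches on, was found in 97.8% of WT and 91.4% of Rad21-/- cells at 2 h.

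**Figure D5:**
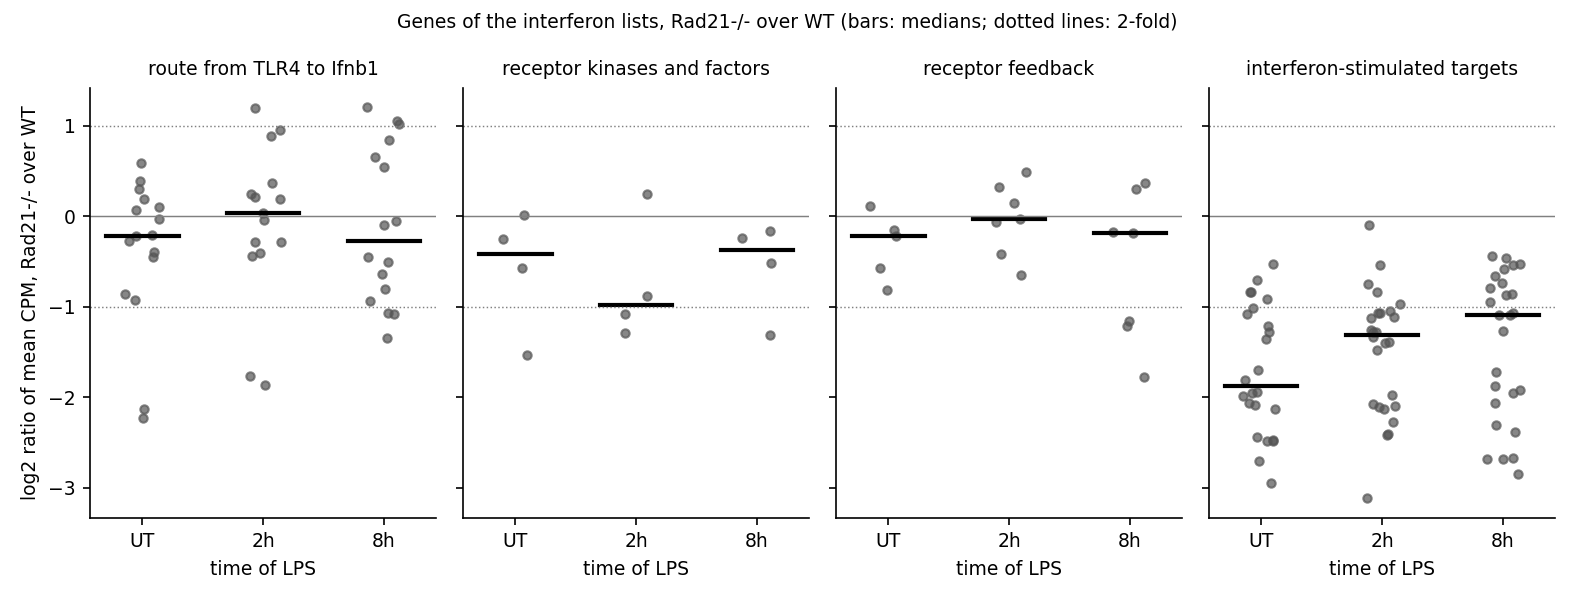
Log2 ratio of mean CPM, Rad21-/- over WT (y axis), at UT, 2 h and 8 h of LPS (x axis) for the tested genes of 4 lists, each point a gene, bars the medians, and dotted lines a 2-fold difference; points are spread sideways for sight only. The interferon-stimulated targets have medians below 0 at all 3 times, of -1.87, -1.31 and -1.09, while the route to Ifnb1 spreads on both sides of 0.

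Other cytokines induced by LPS gave a measure of how far Ifnb1 stood from its class. Of 14 listed genes, 13 were tested and 13 higher in WT cells at 2 h, and 10 were tested and 10 higher in Rad21-/- cells. The genes were listed as induced by LPS, and a gene near 0 at UT passed the filter only through its LPS counts. These counts were thus largely fixed by the choice of genes and are no result about them. Between genotypes at 2 h, 8 of 13 were at least 2-fold lower in Rad21-/- cells and none was higher, with a median log2 ratio of -1.16. Of all genes tested, 7.5% were lower and 4.62% higher, with a median of 0.01. Il6 had the lowest log2 ratio of them, -2.55, while Il1b had 0.45 and Cxcl1 -0.23. Ifnb1 had -4.12, with only 3 UMIs in Rad21-/- cells. Tnf, at a log2 ratio of -1.29, was detected in 98.9% of Rad21-/- cells at 2 h, but Il6 in 4.30%, Csf2 in 4.30% and Il1a in 5.91%, beside 1.61% for Ifnb1.

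Genes with a profile like that of a member were sought among 11913 genes by Pearson's r of log2 mean CPM over the 6 samples, which share genotype, time and pools. For Ifnb1 these were Glra1, Jakmip1, Nme8, Hnrnpll and Atp8b1, with r from 0.982 to 0.996, and since Ifnb1 was at 0 in 4 samples, r rests on the samples at 2 h. Glra1 had 12.1 to 19.2 CPM, so that the likeness is one of shape and not of size. For Ifnar1 they were Ctif, Dtx2, Gm15002, Spata21 and Rpl19-ps12 (0.972 to 0.995), and for Ifnar2 Tle3, Ifit1bl2, Gm12057, Bclaf1 and Secisbp2l (0.944 to 0.983). Dtx2, for example, had 8.37, 9.26 and 61.3 CPM in WT and 6.47, 14.1 and 18.1 CPM in Rad21-/- cells. Few points were compared with many genes, and other settings named other genes.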

How the data were processed

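Single macrophages were sorted into plates, and MARS-seq libraries were made and sequenced by the authors. Per the methods, reads were split by pool and cell barcode, cleared of polyT, mapped with GEMTools 1.7.0 to GRCm38.p4 with Gencode M8, and counted per gene after UMIs within a small edit distance had been merged. Wells with much spike-in, few mapped or very many reads were removed. The authors deposited raw UMI counts for 18429 genes in 1362 cells, without normalization. The methods state that genes in under 5% of cells were dropped, yet 5709 genes in the matrix lie below 5%. Every row names a gene (0 rows do not), 0 columns were left out, and 0 cell names recur between samples. Sample totals lay between 1417409 and 2195921 UMIs. No doublet caller was run, as cells were sorted singly.

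From the counts, shares with Clopper-Pearson intervals, sums of UMIs with Poisson intervals and CPM per cell, averaged over cells, were obtained in Python 3.11.15 from pandas 2.3.3, scipy 1.17.1 and numpy 2.4.6; figures used matplotlib 3.10.9. Where no cell was positive, the limit is that of 3 counts. Differences of shares have Newcombe's interval and ratios of counts an exact conditional one. With 1 sample per group, a gene was called past 2-fold in mean CPM if both samples held at least 20 UMIs together, with the value of 1 UMI added, in 9 comparisons. Thinning to 3800 or 5500 UMIs used exact expected values. Further alternatives were leaving out wells above 25000 UMIs or each pool, a minimum of 2 UMIs per positive cell, equal weight per pool, CPM of summed UMIs, 3 UMIs added, CPM over genes outside the lists, and other minimum counts. Symbols were matched to RefSeq for GRCm38.p6, which held 16119 of 18428, and promoters come from it. Genes named are the 3 members, genes of written lists (pathway, cytokines, cell type markers) and the 5 genes most like each member. A gene of the lists is not reported here. Members and lists were chosen with earlier results of these data known. Steps were tested on simulated data. Marker lists for other cells were sparse in the matrix: conventional dendritic cell genes summed to 23.7 to 32.4 CPM (2 of 4 genes), B cell 5.14 to 16.6 (1 of 4), T and NK cell 4.29 to 12.3 (1 of 5), neutrophil 0 to 7.47 (1 of 5) and fibroblast 5.67 to 15.3 (2 of 3). Rad21-/- cells were not separated by residual Rad21, since the excised part is not given in the sources used here.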

Additional observations from a re-analysis of the deposited data

Results flagged for a closer look

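Between 2 h and 8 h of LPS, the share of cells with an Ifnar2 UMI changed by 9.65 percentage points in WT cells and by -1.26 points in Rad21-/- cells, that is, it went in opposite directions in the 2 genotypes. The change in Rad21-/- cells minus that in WT cells was -10.9 points. This difference was not tested, as each group was 1 sample, and in Rad21-/- cells the interval of the change ran from -10.9 to 8.39 points. The direction in Rad21-/- cells differed between settings: with equal weight per pool the change was 1.17 points, with 2 UMIs asked for it was 0.73, and over the settings without each pool in turn it lay between -4.43 and 2.34 points. Thinning kept it negative. The expected Rad21-/- shares at 2 h and 8 h were 33.8% and 31.5% at 3800 UMIs, and 50.96% and 44.7% at 5500 UMIs.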

How the results depend on the processing

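No paired analysis was possible because each group was 1 sample and the labels give no replicate numbers. Ifnb1 in WT cells at 2 h stood 20.97 points above UT, and this was 13.3 when cells were thinned to 3800 UMIs, 13.7 at 5500 UMIs and 7.53 when a positive cell needed 2 UMIs. WT cells at 8 h against 2 h had -13.3, -13.7 and -7.53 points in the same order, and Rad21-/- against WT cells at 2 h -12.4, -12.9 and -7.53. Without each pool in turn the first and last of these differences lay between 17.5 and 23.7 and between -21.7 and -16.1. Ifnar1 in WT cells at 8 h, with 2 UMIs asked for, stood 4.52 points above UT and 3.39 above 2 h, and thinning and the other settings kept both on the same side of 0. A minimum of 2 UMIs can only lower a share, by construction. Where the intervals of 2 groups did not overlap, no share difference of a member changed its sign; of the smaller differences, some did, among them that of Ifnar1 between genotypes at 2 h (-0.68 points at 5500 UMIs). With UMIs summed over cells, 3 of the 9 log2 ratios of Ifnar1 moved, all of WT cells at 2 h, to 0.94 against UT, 0.30 for 8 h against 2 h and -0.55 for Rad21-/- against WT, where the deepest wells weigh most.

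Counts of genes past 2-fold in either direction depended on the minimum of UMIs. With 1 UMI in place of 20 they were 2897 for WT at 2 h against UT, 5302 at 8 h against UT and 4471 at 8 h against 2 h (within 1.5 times the 3096 with 20 UMIs), 2769, 3532 and 3284 for Rad21-/- at 2 h against UT, 8 h against UT and 8 h against 2 h, and 2522, 3074 and 3510 between genotypes at UT, 2 h and 8 h. With 100 UMIs they were 434, 1208 and 1155 for WT at 2 h against UT, 8 h against UT and 8 h against 2 h, 249, 811 and 601 for Rad21-/-, and 289, 478 and 723 between genotypes. Fewer genes enter under a higher minimum. Without the wells above 25000 UMIs each count was within 1.5 times its value. Of the 5 genes most like each member, 0 were among those named by shares of cells, and 0 for Ifnb1, 1 for Ifnar1 and 3 for Ifnar2 with at least 500 UMIs; the cause was not tested.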
